A study of Mus musculus with 12 samples.

Results

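The 83 genes described here encode the proteins of the cytosolic ribosome. They were taken from the 56980 gene IDs of a count table, of which 52073 matched a symbol, by symbol alone: Rpl or Rps, a number and at most 1 closing letter a, x or l, together with Rplp0, Rplp1, Rplp2 and Rpsa. Of the 83 genes, 51 belong to the large subunit and 32 to the small subunit. The RNA was that of macrophages grown from mouse bone marrow for 7 days in Dulbecco's medium conditioned by the L929 fibroblast line, whose medium supplies a macrophage growth factor. The 4 groups held 3 libraries each. The cKO_M1 libraries came from cells of the genotype RankCre-Regnaes3cKO given lipopolysaccharide (LPS) at 100 ng/ml with interferon-gamma at 10 ng/ml, and the WT_M1 libraries from wildtype cells given the same. The cKO_M0 and WT_M0 libraries came from unstimulated cells of these genotypes. RankCre denotes Cre recombinase driven from the RANK (Tnfrsf11a) gene, and Regnase-3 is an RNA-binding zinc finger protein encoded by Zc3h12c. The labels name no group with Cre alone. They give neither the deleted exons nor whether the libraries of a group came from separate mice or dishes, and the p-values therefore reflect only the spread between these libraries, which may be technical.

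Ribosomal proteins assemble with ribosomal RNA into the subunits that decode mRNA and form peptide bonds, and most are made in equal numbers per ribosome. Their mRNAs are abundant, short and stable, and many begin with a run of pyrimidines at the cap, the terminal oligopyrimidine (TOP) motif, through which mTORC1 and the La-related protein Larp1 set their translation and storage. In macrophages, LPS with interferon-gamma is the usual stimulus for the proinflammatory (M1) state, in which growth and proliferation programmes give way to defence.

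Runs of pyrimidines stood near many of the annotated start sites, though not always at the site itself. RefSeq (GRCm38.p6) listed start sites for 61 of the 83 genes, 73 sites in all. The sequence searched for was a run of at least 6 pyrimidines opening with C, on the sense strand, within 15 bases of either side of the site. It was present for 36 of the 61 genes, or 59.0%, against 25.5% of all 27025 genes in the same table. The windows below are a selection from the genes named in the comparisons, with Rps6, the small subunit protein phosphorylated by S6 kinase downstream of mTORC1. They are shown 5′ to 3′ on the gene's strand, with the run in capitals.
Rps18, chr17:33955651-33955680, minus strand: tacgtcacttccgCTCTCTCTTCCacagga
Rpl14, chr9:120571502-120571531, plus strand: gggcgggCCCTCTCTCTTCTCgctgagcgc
Rps6, chr4:86857353-86857382, minus strand: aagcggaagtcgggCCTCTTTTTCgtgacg
Rps24, chr14:24490663-24490692, plus strand: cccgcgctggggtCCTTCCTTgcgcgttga
Rps26, chr10:128626492-128626521, minus strand: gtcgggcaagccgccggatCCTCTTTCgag
Rps27l, chr9:66946071-66946100, plus strand: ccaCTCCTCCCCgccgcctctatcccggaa
Rpl10a, chr17:28328456-28328485, plus strand: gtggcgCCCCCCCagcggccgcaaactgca
Rps4x, chrX:102189377-102189406, minus strand: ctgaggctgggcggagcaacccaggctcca
Relative to the annotated start, the run began at -2 in Rps18 and Rps24, -1 in Rps6, -8 in Rpl14 and 5 in Rps26. The runs of Rpl10a and Rps27l began at -9 and -12 and ended upstream of the start, outside the annotated mRNA. The run of Rpl10a was made of C alone, and the window of Rps4x held none. Among genes not shown, the windows of Rpl27, Rpl36a, Rpl22, Rplp0, Rpl5, Rpl11 and Rpsa held no run, while those of Rpl12, Rplp2 and Rpl4 held a run. That of Rpl4 began at -13 and also ended upstream. No start was listed for Rpl3 or Rpl23a. Rps24, Rps27l and Rpl10a each had another listed start without a run. The ETS-type motif CCGGAAG, on either strand of the 300 bases around the start, stood in 35.6% of the genes' promoters, against 8.86% of all promoters. A match describes the letters in a window and is not a mapped site.

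The values deposited were raw counts, and library totals lay between 41721452 and 42197986 counts. Levels are given as CPM (counts divided by the TMM-scaled library size); TMM scaling matches libraries by the bulk of their genes. The sum of 10 macrophage markers lay between 15233 and 17024 CPM in cKO_M1 and between 14474 and 16397 CPM in WT_M1. That sum lay between 16829 and 18405 CPM in cKO_M0 and between 15797 and 20074 CPM in WT_M0. Single markers moved with stimulation: 4 rose and 5 fell in M1 against M0 in each genotype (edgeR adjusted p under 0.05). The lowest in M1 was Mrc1, at 8.15, 10.2 and 13.2 CPM in cKO_M1 and 19.9, 26.5 and 18.0 CPM in WT_M1. Its means in M0 were 831 CPM in cKO_M0 and 957 CPM in WT_M0. The T cell genes Cd3e and Cd3g and the erythroid gene Hbb-bt had no count in any library. The 6 T and NK cell markers summed to at most 0.284 CPM in a library, and the 5 erythroid markers to at most 0.155 CPM. The 4 stromal markers summed to 4.73 CPM in replicate 4 of WT_M0 and to at most 1.99 CPM in any other library. Zc3h12c was at 98.4, 104 and 127 CPM in cKO_M1, against 176, 192 and 159 CPM in WT_M1, and at 13.6, 18.5 and 14.8 CPM in cKO_M0, against 17.2, 16.4 and 15.6 CPM in WT_M0. It was lower in cKO_M1 than in WT_M1 (log2 fold change -0.68, edgeR adjusted p = 0.00101), while in M0 the groups overlapped (-0.07, edgeR adjusted p = 0.809). A count over the whole gene does not read the deletion itself, so groups are named as labelled.

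The ribosomal protein genes together took a small share of the reads, and that share was smaller in stimulated cells of both genotypes. They held 1.06%, 0.803% and 0.780% of all counts in the cKO_M1 libraries, against 2.58%, 1.97% and 2.52% in cKO_M0. They held 0.892%, 1.16% and 0.892% in WT_M1, against 2.27%, 1.76% and 1.89% in WT_M0. Every M1 library lay below every M0 library, while the genotypes overlapped within each state. The mean share was 0.881% ± 0.156 in cKO_M1, 0.982% ± 0.155 in WT_M1, 2.36% ± 0.332 in cKO_M0 and 1.97% ± 0.264 in WT_M0 (SD, n = 3 each). The share in M1 was thus 0.374 of that in M0 for cKO and 0.497 for WT, and the share in cKO was 0.897 of that in WT for M1 and 1.19 times it for M0.

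**Figure D1:**
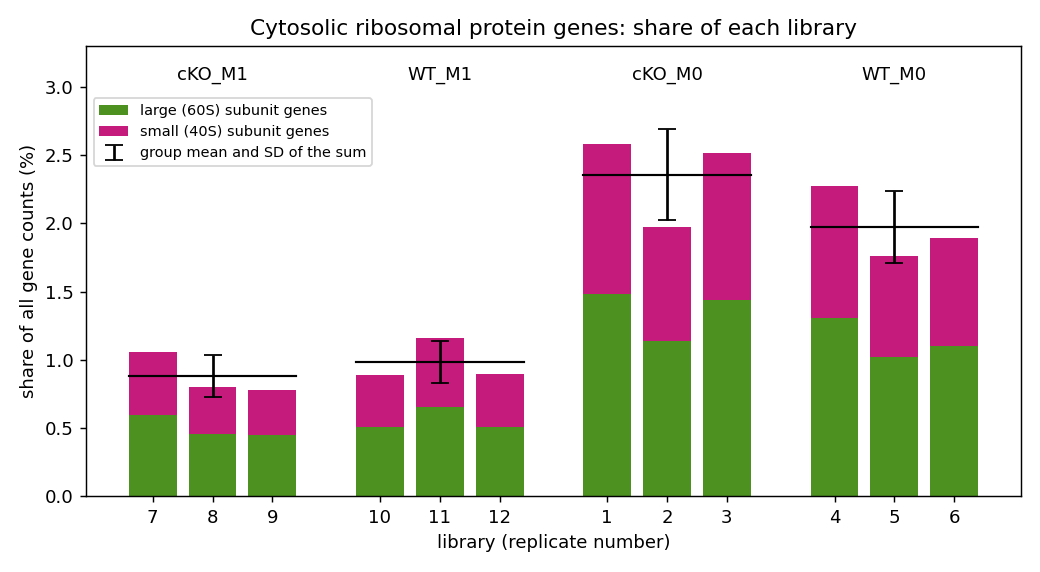
Share of all gene counts of a library (%, vertical axis) taken by the large (green) and small (magenta) subunit genes, 1 bar a library, with the mean and SD of each group in black. All 6 M1 bars end between 0.780% and 1.16%, and all 6 M0 bars between 1.76% and 2.58%.

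Both subunits took part to a similar extent. Large subunit genes held 0.50% ± 0.0830 of the counts in cKO_M1 and 1.35% ± 0.188 in cKO_M0, a ratio of 0.370, and small subunit genes 0.381% ± 0.0727 and 1.00% ± 0.144, a ratio of 0.380 (SD, n = 3 each). In WT the ratios of M1 to M0 were 0.486 for the large and 0.512 for the small subunit. A share depends on what else fills the library. The 20 most abundant other genes held 13.8% ± 0.183 of counts in cKO_M1 and 14.8% ± 0.382 in WT_M1, against 10.8% ± 0.576 in cKO_M0 and 11.4% ± 0.566 in WT_M0. TMM factors averaged 0.840 in cKO_M1 and 0.808 in WT_M1, against 1.22 in cKO_M0 and 1.21 in WT_M0. On the TMM scale the genes summed to 12666, 9572 and 9252 CPM in cKO_M1, against 20918, 16353 and 20768 CPM in cKO_M0, a ratio of means of 0.543. They summed to 10921, 14644 and 10972 CPM in WT_M1, against 18523, 14682 and 15697 CPM in WT_M0, a ratio of 0.747. The states still did not overlap on this scale, but replicate 11 of WT_M1 lay just under the lowest WT_M0 library. In bulk samples, fewer cells of a type and less RNA per cell cannot be told apart.

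Levels between genes were compared per kilobase of the table's gene length, which counts all annotated exons. Rplp1 and Rplp0, proteins of the stalk that recruits elongation factors to the ribosome, led. Rplp1 averaged 577 CPM per kilobase in cKO_M1 and 661 in WT_M1, against 814 in cKO_M0 and 624 in WT_M0. Rplp0, the stalk base, averaged 351 in cKO_M1 and 428 in WT_M1, against 609 in cKO_M0 and 505 in WT_M0. Rplp2, the other acidic stalk protein, averaged 67.7 over all libraries and ranked 44. Rps4x, Rpl4 and Rps2 followed Rplp0 at 313, 262 and 245 CPM per kilobase over all libraries. By the principal transcript's length instead, the first 3 kept their order and Rpl4 moved to rank 12. The ranks from both lengths correlated with Spearman's rho = 0.844 across genes, a description, since both use the same counts.

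At the other end stood 2 kinds of gene. Rpl10l, known as a testis gene that stands in for Rpl10, had no count in any library, and Rpl3l, the striated muscle paralog of Rpl3, had at most 14 counts. These 2 genes were not tested, and 81 were. Rpl39l, expressed in male germ cells in place of Rpl39, had between 6 and 38 counts a library, and Rpl32l between 0 and 13. Their ordinary counterparts Rpl10, Rpl3, Rpl39 and Rpl32 were all abundant. A further 3 ordinary genes were very low: Rps10 averaged 1.02 CPM, Rpl24 1.38 CPM and Rpl13a 6.68 CPM, where every gene other than these, the 4 low paralogs above and Rps4l (4.09 CPM) averaged at least 20.3 CPM. In the GENCODE M21 annotation, same-strand exons of another gene cover 53.6% of the principal transcript of Rps10 (RPS10-NUDT3), 71.5% of that of Rpl24 (Gm28037) and 59.3% of that of Rpl13a (chiefly Gm45713). Those 3 overlapping genes had no count in any library. How reads that fit several genes were counted is not given, so the levels of these 3 genes are uncertain. Near-identical copies bear on more genes: 39 of 80 with a principal transcript shared over 50% of their 50-base stretches with another gene's transcripts, and 14 had exons on the opposite strand, which matters if strand was not used.

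Most of these mRNAs were lower in stimulated than in unstimulated cKO cells, led by Rpl10a and Rpl3 among genes of at least 1 CPM, and fewer passed in WT cells. Of the 81 tested genes, 71 fell and 0 rose in cKO_M1 against cKO_M0 (edgeR quasi-likelihood test, adjusted p under 0.05 over all 15110 tested genes), where 36% of all tested genes fell and 34.2% rose. The median log2 fold change was -0.80 for these genes and -0.04 for all tested genes. In WT cells, 42 fell and 1 rose in WT_M1 against WT_M0, where 37.1% of all tested genes fell and 34.2% rose, and the medians were -0.39 and -0.07. By libraries, 58 genes in cKO and 39 in WT had all M1 values below all M0 values, which held for 37.6% and 39.6% of all tested genes. The count in WT is thus nearer to the background than that in cKO. Scaling by library totals alone lowers the median of all genes to -0.58 in cKO and -0.65 in WT. Relative to that median the ribosomal protein genes then lay at -0.76 in cKO and -0.33 in WT, against -0.76 and -0.32 under TMM.

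**Figure D2:**
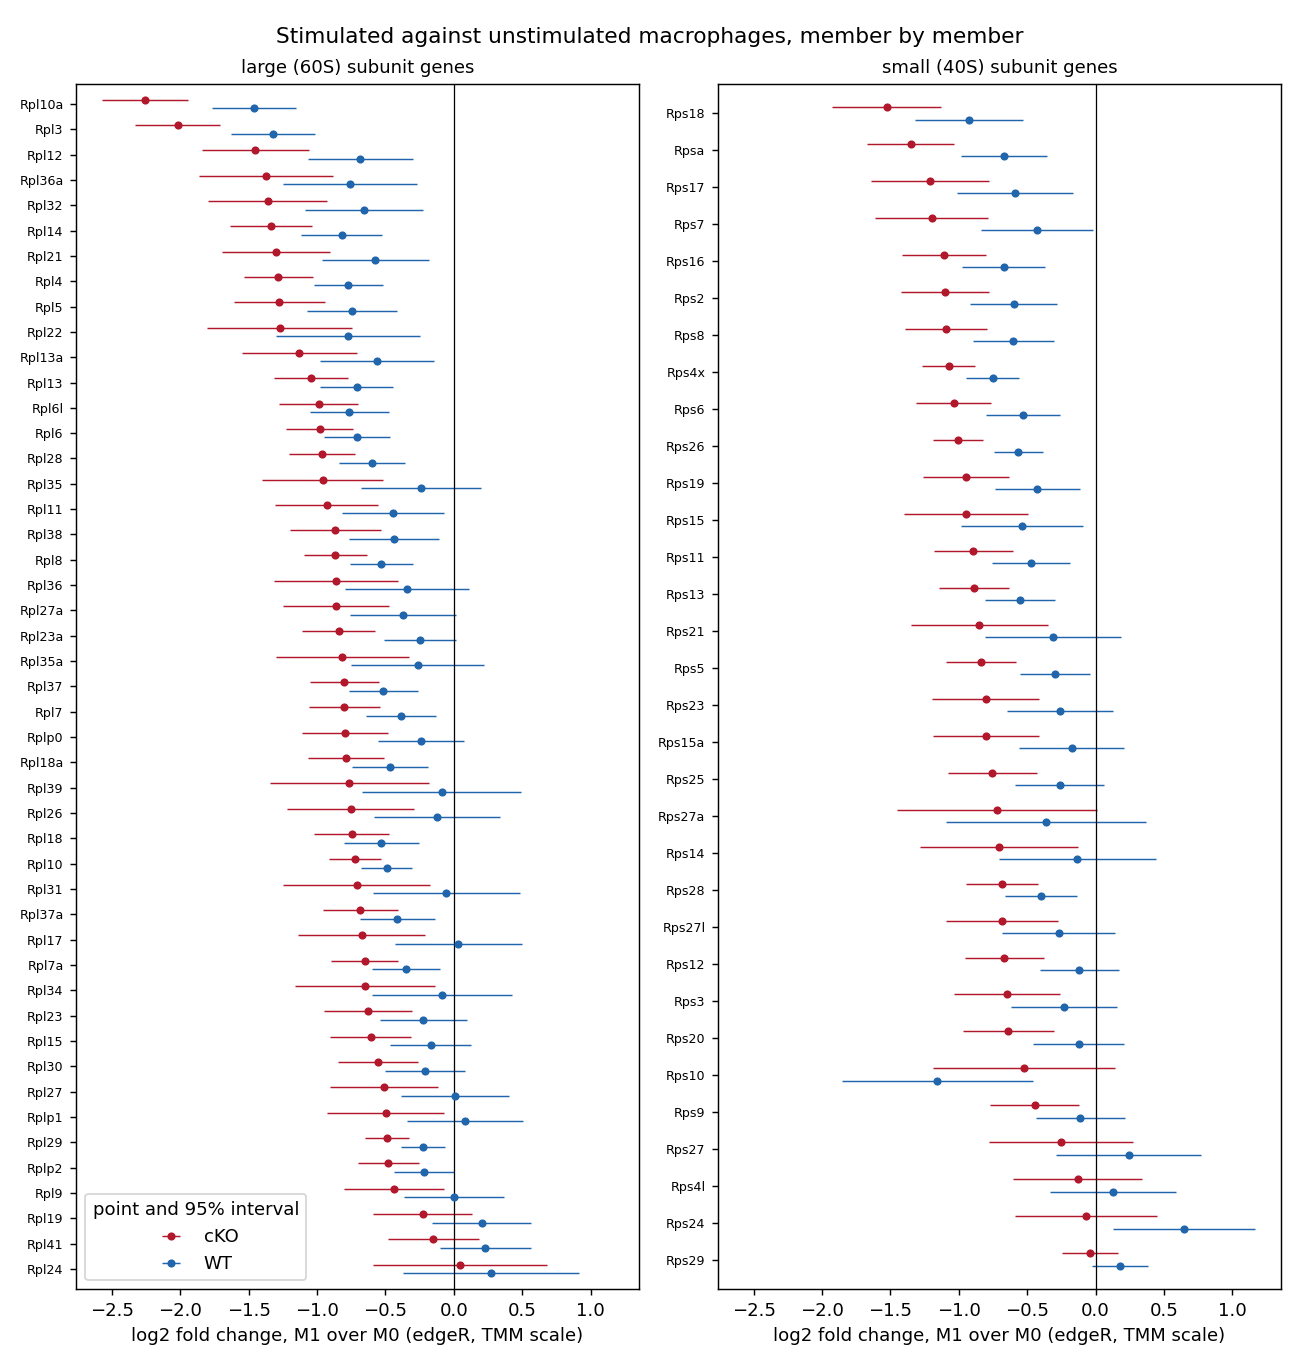
Log2 fold change of M1 over M0 (horizontal axis, edgeR on the TMM scale) with 95% intervals in cKO (red) and WT (blue) for the 79 tested genes of at least 1 CPM, large subunit on the left and small subunit on the right, in order of the cKO change. Rpl10a and Rpl3 fell furthest, at -2.26 and -2.02 in cKO, and Rps24 in WT is the only interval above 0.

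Rpl10a and Rpl3 stood apart from the rest. Rpl10a, the protein of the mobile L1 stalk beside the exit site for tRNA, had 55.3, 41.7 and 46.1 CPM in cKO_M1, against 247, 196 and 242 CPM in cKO_M0. It had 64.8, 93.3 and 66.9 CPM in WT_M1, against 227, 188 and 205 CPM in WT_M0. The states were far apart in both genotypes, and the log2 fold change was -2.26 (SE 0.15, edgeR adjusted p = 1.37e-09) in cKO and -1.46 (SE 0.14, adjusted p = 1.76e-07) in WT. Rpl3, which reaches towards the peptidyl transferase centre, had 209, 181 and 188 CPM in cKO_M1, against 806, 712 and 825 CPM in cKO_M0. It had 267, 398 and 248 CPM in WT_M1, against 829, 697 and 758 CPM in WT_M0. Again no M1 library reached an M0 library, with log2 fold changes of -2.02 (edgeR adjusted p = 4.97e-09) in cKO and -1.32 (adjusted p = 5.6e-07) in WT. Both genes share most of their sequence with copies, 88.1% of the 50-base stretches of Rpl10a and 85.6% of those of Rpl3. The pseudogene rows Rpl10a-ps1 and Rpl3-ps1 fell by similar amounts, -2.29 and -2.04 in cKO and -1.51 and -1.34 in WT.

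Among other large subunit genes of at least 1 CPM, Rpl12, Rpl36a, Rpl32 and Rpl14 fell in cKO, with log2 fold changes of -1.45, -1.37, -1.36 and -1.34 (edgeR adjusted p between 4.2e-07 and 6.88e-05). Rpl12, a protein at the base of the stalk, had 132, 94.8 and 102 CPM in cKO_M1, against 304, 245 and 351 CPM in cKO_M0. Its WT values were 118, 184 and 127 CPM in WT_M1, against 278, 198 and 212 CPM in WT_M0, with the highest M1 library just under the lowest M0 library. The low paralog Rpl32l had 3, 1 and 2 counts in cKO_M1, against 10, 11 and 11 counts in cKO_M0. Its fall was called (log2 fold change -1.83, edgeR adjusted p = 0.0288), but not without replicate 2 or 3 of cKO_M0 or replicate 8 or 9 of cKO_M1 (adjusted p between 0.0586 and 0.109), and in WT it had -1.49 (adjusted p = 0.0748). Rpl5 and Rpl11, which carry the 5S RNA and bind Mdm2 when ribosome assembly is disturbed, fell in both genotypes, with log2 fold changes of -1.27 and -0.93 in cKO and -0.75 and -0.45 in WT. Mdm2 itself rose, with 1.87 in cKO and 2.69 in WT. Rpl22, which binds RNA and has the paralog Rpl22l1, fell too (-1.27 in cKO and -0.77 in WT). Rpl22l1 fell in cKO (-1.25, edgeR adjusted p = 0.00051) and had a log2 fold change of -0.13 in WT (adjusted p = 0.648). The falls of Rpl22, Rpl36a and Rpl32 in WT no longer passed without replicate 4 of WT_M0 (adjusted p = 0.0642, 0.050 and 0.0539), and those of Rpl22 and Rpl36a also without replicate 10 of WT_M1 (0.0506 and 0.0507). That of Rpl22 was also lost without replicate 12 of WT_M1 (0.0628).

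The stalk genes differed in size of change. Rplp0 fell in cKO (log2 fold change -0.79, edgeR adjusted p = 0.000191) and had -0.24 in WT (adjusted p = 0.159), and Rplp2 had -0.48 in cKO (adjusted p = 0.000685) and -0.22 in WT (adjusted p = 0.0673). Rplp1 had 372, 244 and 248 CPM in cKO_M1, against 463, 307 and 448 CPM in cKO_M0, which overlapped. Its log2 fold change was -0.50 in cKO (edgeR adjusted p = 0.0378) and 0.08 in WT (adjusted p = 0.725), where scaling by library totals gave -0.51. The cKO call of Rplp1 was lost without replicate 1 or 3 of cKO_M0, or 8 or 9 of cKO_M1 (edgeR adjusted p between 0.113 and 0.150). It was also lost without replicate 12 of WT_M1 (adjusted p = 0.0521). That library is outside the comparison and enters only through the shared fit, and the log2 fold change stayed at -0.494. Rpl27 fell in cKO (-0.51), and by more without replicate 7 of cKO_M1 (-0.83), and was lost without replicate 3 of cKO_M0 or replicate 8 or 9 of cKO_M1 (adjusted p between 0.0687 and 0.117).

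On the small subunit, Rps18, a protein of its head, fell most in cKO. It had 137, 96.7 and 90.1 CPM in cKO_M1, against 333, 253 and 346 CPM in cKO_M0, and 110, 167 and 120 CPM in WT_M1, against 305, 213 and 236 CPM in WT_M0. The states did not overlap in either genotype, with log2 fold changes of -1.53 (edgeR adjusted p = 2.49e-06) in cKO and -0.93 (adjusted p = 0.000332) in WT. Rpsa, also known as a laminin receptor, fell with log2 fold changes of -1.35 in cKO and -0.67 in WT, and Rps6 with -1.04 and -0.53. Rps10, the protein at the mRNA entry whose ubiquitination marks collided ribosomes, fell in WT (-1.16, edgeR adjusted p = 0.00507) and had a log2 fold change of -0.52 in cKO (adjusted p = 0.148). Its libraries held 0.380 to 0.909 CPM in WT_M1 and 1.02 to 1.62 CPM in WT_M0, at the level made uncertain by the overlap above.

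The remaining genes did not pass in cKO. In cKO the 10 tested genes short of the threshold were Rpl19, Rpl24, Rpl39l, Rpl41, Rps10, Rps24, Rps27, Rps27a, Rps29 and Rps4l. Rps29 had 163, 124 and 126 CPM in cKO_M1, against 144, 136 and 144 CPM in cKO_M0, overlapping. Its values were 140, 152 and 136 CPM in WT_M1, against 124, 128 and 127 CPM in WT_M0, higher in every WT_M1 library but by a log2 fold change of 0.18 that did not pass (edgeR adjusted p = 0.112) and that was -0.41 with scaling by library totals. Rps24, a small subunit protein with several splice forms, had 309, 434 and 278 CPM in WT_M1, against 283, 178 and 193 CPM in WT_M0. It rose in WT (log2 fold change 0.64, SE 0.24, edgeR adjusted p = 0.0274), although the lowest WT_M1 library lay under the highest WT_M0 library. That call was lost without replicate 5 or 6 of WT_M0 (adjusted p = 0.106 and 0.0922) and without replicate 11 of WT_M1 (0.149), as well as under DESeq2 (0.0510) and scaling by library totals (0.845, with a log2 fold change of 0.055). In cKO, Rps24 had 436, 281 and 227 CPM in cKO_M1, against 394, 237 and 361 CPM in cKO_M0, with no difference past the threshold (log2 fold change -0.07).

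The genes were ordered much alike in both genotypes. Across 74 genes of at least 20 CPM, the log2 fold changes of M1 over M0 in cKO and in WT had a Pearson correlation of 0.922, a description across genes that share libraries of one scaling. Genes with a longer coding sequence tended to lower fold changes, with a Spearman correlation of -0.354 in cKO and -0.425 in WT over the same genes. With whole transcript length it was -0.165 and -0.190. The genotypes' changes were compared directly by the interaction described further on.

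**Figure D3:**
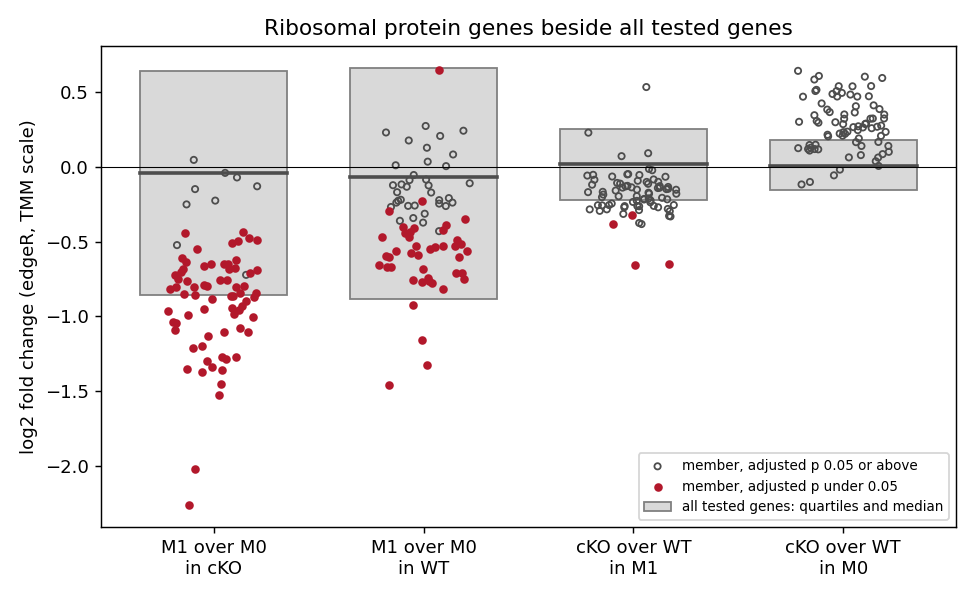
Log2 fold change (vertical axis, edgeR, TMM scale) of the 79 tested genes of at least 1 CPM (points, filled red when the adjusted p is under 0.05) beside the quartiles and median of all 15110 tested genes (grey) in 4 comparisons. The points lie mostly below 0 in M1 against M0, with 71 of the 81 tested genes called lower in cKO and 42 in WT, and mostly above 0, with 0 called, for cKO against WT in M0.

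In unstimulated cells no ribosomal protein gene differed between genotypes past the threshold. Of the 81 tested genes, 0 rose and 0 fell in cKO_M0 against WT_M0, where 0.662% of all tested genes rose, 0.953% fell and 1.61% passed in all (edgeR quasi-likelihood test). The log2 fold change was above 0 for 77 of the 81, with a median of 0.28 beside 0.01 for all tested genes. An unadjusted edgeR p under 0.05 was found for 22 of the 81, and for 2810 of all 15110 tested genes. DESeq2 called 2 higher and limma-voom 0, where they called 408 and 240 of all 15110 genes higher. With no filter on low counts edgeR called 39 higher, where 709 of all 27501 genes were called higher. The cause of these added calls was not tested. All cKO_M0 libraries lay above all WT_M0 libraries for 8 genes, where this held for 13.3% of all tested genes. The smallest p belonged to Rps27l, a paralog of Rps27 known as a p53 target, which had 61.0, 47.0 and 62.0 CPM in cKO_M0, against 45.2, 30.8 and 33.0 CPM in WT_M0. Its groups did not overlap, and its log2 fold change was 0.64 (SE 0.19, edgeR adjusted p = 0.102). Rpl27 followed with 92.9, 91.5 and 104 CPM in cKO_M0, against 67.8, 64.5 and 58.8 CPM in WT_M0, again without overlap (0.59, edgeR adjusted p = 0.113). DESeq2 called both, with adjusted p = 0.0280 and 0.0380. Rps27, beside Rps27l, had a log2 fold change of 0.58 with overlapping groups (edgeR adjusted p = 0.224).

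In stimulated cells 4 genes were lower in cKO. Of the 81 tested genes, 0 rose and 4 fell in cKO_M1 against WT_M1, where 8.98% of all tested genes rose and 9.67% fell, and the median log2 fold change was -0.18 beside 0.02 for all tested genes. The share called is under the background. All cKO_M1 libraries lay below all WT_M1 libraries for 9 genes, which held for 16.3% of all tested genes. The 4 genes were Rpl3, Rpl10a, Rps4x and Rps26, and Rpl3 and Rpl10a are also those with the lowest log2 fold change of M1 over M0 among genes of at least 1 CPM. The cKO_M1 and WT_M1 values of Rpl3 and Rpl10a given above did not overlap, with log2 fold changes of -0.66 (SE 0.14, edgeR adjusted p = 0.0047) and -0.65 (SE 0.14, adjusted p = 0.00523). Without replicate 11 of WT_M1, the highest of its group for both, the change of Rpl3 was -0.43 (adjusted p = 0.0146).

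Rps4x and Rps26 had tighter values. Rps4x, a small subunit protein encoded on the X chromosome, had 300, 302 and 326 CPM in cKO_M1, against 374, 467 and 368 CPM in WT_M1, a log2 fold change of -0.38 (SE 0.09, edgeR adjusted p = 0.00884). It had 687, 617 and 652 CPM in cKO_M0, against 691, 668 and 675 CPM in WT_M0, overlapping. Its autosomal paralog Rps4l averaged 4.09 CPM and did not pass (edgeR adjusted p = 0.265 in M1). Rps26, which lines the mRNA exit channel upstream of the start codon, had 126, 119 and 126 CPM in cKO_M1, against 159, 163 and 144 CPM in WT_M1. All 3 cKO libraries were lower, with a log2 fold change of -0.33 (SE 0.08, edgeR adjusted p = 0.0139), and the call was lost without replicate 8 of cKO_M1 (0.0659) or replicate 11 of WT_M1 (0.0558). Single libraries moved the number of calls: 8 genes were called lower without replicate 7 of cKO_M1 and 3 without replicate 11 of WT_M1. Over all genes, 1217 of 15509 and 987 of 15508 were then called lower, against 1461 of 15110 with all libraries. The median of the 81 genes was -0.37 without replicate 7 of cKO_M1, -0.12 without replicate 8 of cKO_M1 and -0.06 without replicate 11 of WT_M1. With no filter on low counts 23 were called lower, where 1772 of all 27501 genes were called lower.

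**Figure D4:**
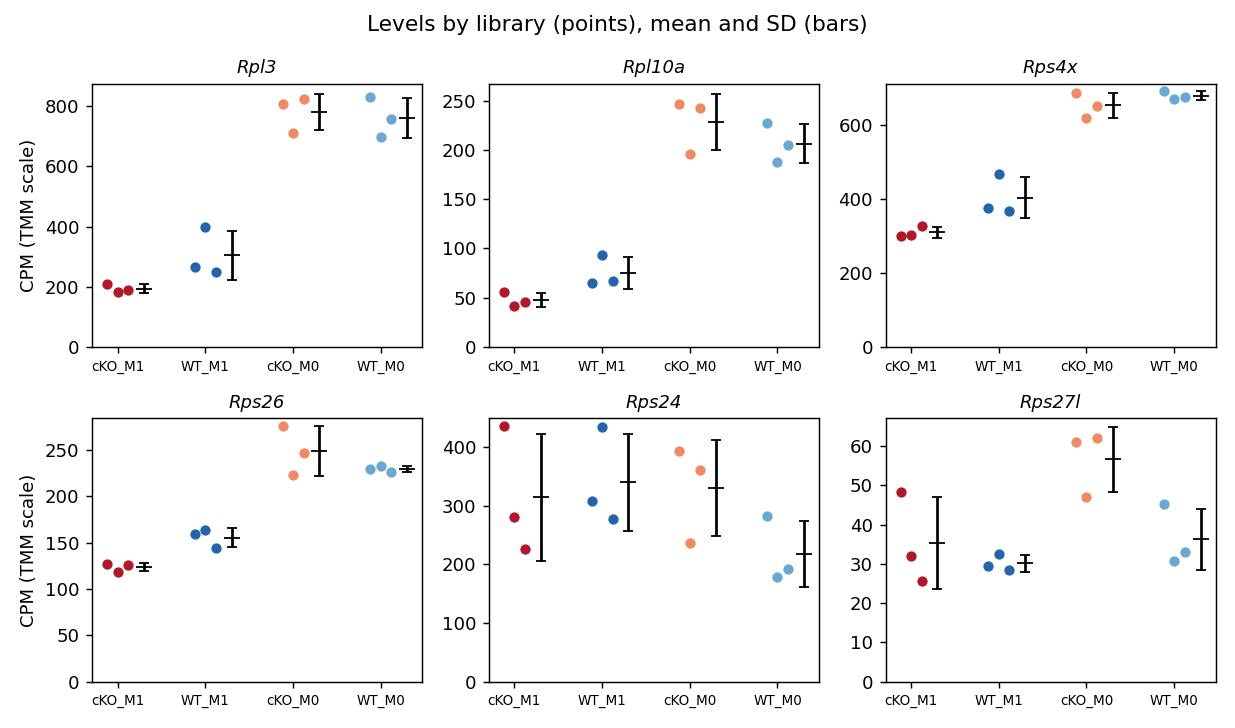
Level in CPM on the TMM scale (vertical axis, from 0) of 6 genes in each library (points) with the mean and SD of each group (black). Rpl3, Rpl10a, Rps4x and Rps26 are lower in all cKO_M1 than in all WT_M1 libraries, while Rps24 and Rps27l overlap there.

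Whether the genotypes differed in their response was tested by the interaction of genotype and stimulation, the effect of cKO in M1 minus that in M0. It was called lower for 4 of the 81 genes and higher for 0, where 4.14% of all tested genes were called lower and 4.02% higher. The log2 differences were -0.80 for Rpl10a (SE 0.20, edgeR adjusted p = 0.0238), -0.70 for Rpl3 (SE 0.20, adjusted p = 0.0442), -0.60 for Rpl23a (SE 0.17, adjusted p = 0.0488) and -0.44 for Rps26 (SE 0.12, adjusted p = 0.0337). Rpl23a, a protein at the mouth of the peptide exit tunnel, had 42, 34.7 and 32.3 CPM in cKO_M1, against 40.6, 51.7 and 37.0 CPM in WT_M1. It had 70.6, 58.7 and 66.2 CPM in cKO_M0, against 51.2, 47.8 and 54.4 CPM in WT_M0, so that cKO was higher in every M0 library while M1 libraries overlapped. In the annotation 55.4% of its principal transcript lies under an exon of Tlcd1 on the other strand. The difference was below 0 for 80 of 81 genes, with a median of -0.49 beside -0.004 for all tested genes. The called number was 0 without replicate 1 or 3 of cKO_M0, replicate 6 of WT_M0, replicate 8 of cKO_M1 or replicate 11 of WT_M1, and 23 without replicate 7 of cKO_M1. It was 10 without replicate 2 of cKO_M0, 1 without replicate 5 of WT_M0, and 2 without replicate 10 of WT_M1 or replicate 9 of cKO_M1. It was 12 under DESeq2, 1 with scaling by library totals and 55 with no filter. Of all genes, 12.6%, 8.7% and 7.17% were called in either direction there. Without single libraries that share lay between 3.64% (without replicate 8 of cKO_M1) and 10.2% (without replicate 12 of WT_M1), beside 8.16% with all libraries. None of the 4 calls held in every such fit, and the number called over all genes also changed with the libraries used.

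Libraries of a group differed in these genes together. After subtraction of group means, 75 genes of at least 20 CPM had a median pairwise Pearson correlation of 0.901 over the 12 libraries, beside 0.038 for 6511 other genes past the same level, and their median SD within groups was 0.233 log2 units, beside 0.114. The genes therefore do not count as separate observations of a library. They lay 0.29 above the group mean in replicate 7 of cKO_M1, 0.28 above it in replicate 11 of WT_M1, 0.20 above it in replicate 4 of WT_M0 and 0.13 above it in replicate 1 of cKO_M0. In replicate 2 of cKO_M0 the median deviation was -0.23. Rpl29 varied least, with an SD of 0.074, and Rps27a, which is made as a fusion with ubiquitin, varied most, with an SD of 0.551 and 11177 counts in replicate 4 of WT_M0 beside 4012 and 4639 in the other WT_M0 libraries.

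Other short mRNAs moved with them within groups. The 104 other genes with principal transcripts under 750 bases had median deviations of 0.29 in replicate 7 of cKO_M1, 0.07 in replicate 11 of WT_M1, 0.15 in replicate 4 of WT_M0 and -0.17 in replicate 2 of cKO_M0. The 2344 other genes of 4000 bases or more deviated the other way in most libraries, by -0.11 in replicate 7 of cKO_M1 and 0.10 in replicate 2 of cKO_M0. In replicate 11 of WT_M1 the ribosomal protein genes lay further from the group mean than other short genes did. Between groups, cKO_M0 against WT_M0 gave a median log2 fold change of 0.22 for the other genes under 750 bases, beside 0.29 for the 75 ribosomal protein genes. For M1 against M0 the other short genes had medians of 0.27 in cKO and 0.42 in WT, opposite in sign to the -0.82 and -0.39 of the ribosomal protein genes. For cKO_M1 against WT_M1 the medians were also opposite in sign, 0.12 for the other short genes and -0.18 for the ribosomal protein genes, and for the interaction described above they were -0.11 and -0.49. The part of transcript length in the comparisons of genotypes was not tested.

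**Figure D5:**
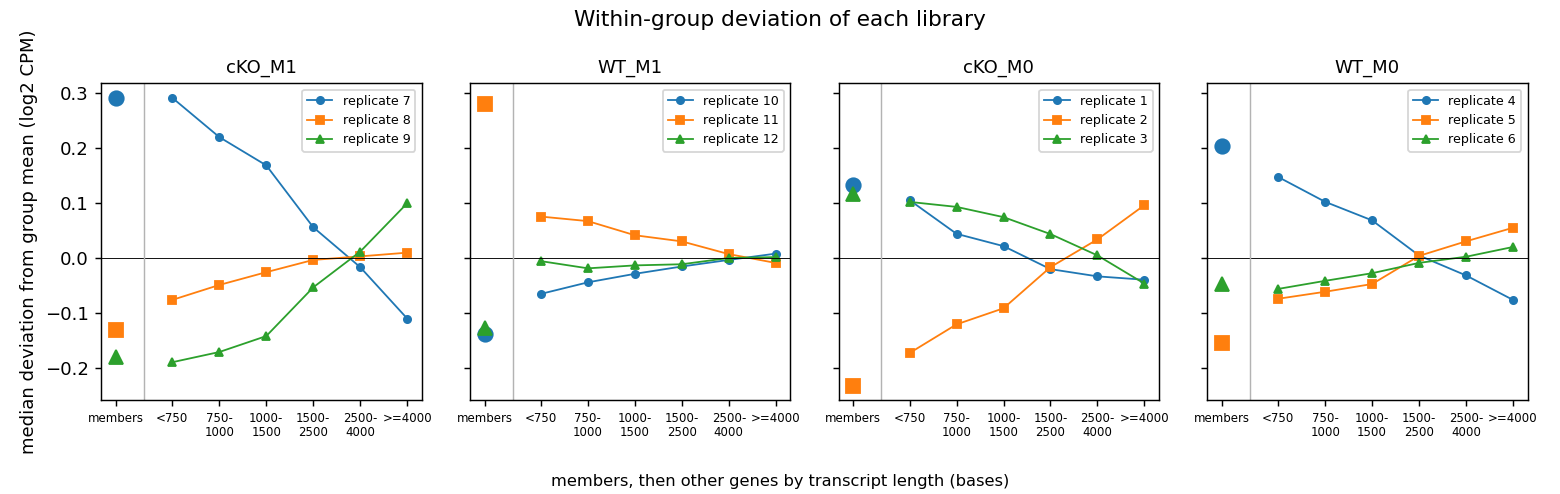
Median deviation from the group mean (log2 CPM, vertical axis) in each library for the 75 ribosomal protein genes of at least 20 CPM (large symbols, left of the grey line) and for other genes by length of the principal transcript (lines), 1 panel a group. In all 4 groups the genes under 750 bases lie on the same side as the ribosomal protein genes. In WT_M1 they deviate by less, in replicate 11 by 0.07 beside 0.28.

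Markers of cycling cells moved with stimulation as well. The sum of 6 such markers lay between 353 and 384 CPM in cKO_M1 and 409 and 444 CPM in WT_M1, against 1815 to 1975 CPM in cKO_M0 and 1444 to 1739 CPM in WT_M0. Of the 6 markers, 5 fell and 0 rose in cKO, and 5 fell and 1 rose in WT. The share that fell was 83.3% in each genotype, beside 36% and 37.1% of all tested genes. Those 5 had log2 fold changes from -5.86 to -3.81 in cKO and from -5.63 to -3.39 in WT. The exception was Pcna, with -0.15 in cKO (edgeR adjusted p = 0.153) and 0.49 in WT (adjusted p = 0.000229). Pcna made up most of the M1 sums, with 315 of a mean of 367 CPM in cKO_M1 and 345 of 423 CPM in WT_M1. The 7 B and plasma cell markers summed to 0.341 to 0.766 CPM in cKO_M1, against 32.9 to 62.4 CPM in cKO_M0. In WT they summed to 3.16 to 5.20 CPM in WT_M1, against 53.7 to 70.6 CPM in WT_M0. Ighm made up most of the M0 sums, with 37.1 of a mean of 43.3 CPM in cKO_M0 and 53.1 of 64.3 CPM in WT_M0. Of the 4 tested, 4 fell in cKO and 3 in WT, and 0 rose. Cd79b was higher in cKO_M1 than in WT_M1 (means 0.227 and 0.118 CPM). Ms4a1, not tested, had a mean of 0.137 CPM in WT_M1 and 0 in WT_M0. The 6 neutrophil markers summed to 7.30 to 16.0 CPM in cKO_M1 and 6.49 to 10.9 CPM in WT_M1, against 0.785 to 1.59 CPM in cKO_M0 and 0.499 to 1.68 CPM in WT_M0. S100a8 alone carried that rise, at a mean of 11.2 CPM in cKO_M1 and 8.04 CPM in WT_M1, against 0.495 CPM in cKO_M0 and 0.453 CPM in WT_M0. The neutrophil markers S100a9 and Ngp, both under 1 CPM, had lower means in M1 than in M0 in both genotypes. Mitochondrially encoded genes held 0.95% ± 0.0441 of counts in cKO_M1 and 0.995% ± 0.133 in WT_M1, against 1.71% ± 0.161 in cKO_M0 and 1.48% ± 0.114 in WT_M0 (SD, n = 3 each). Their part in the ribosomal protein result was not tested.

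Genes that work with the ribosome were counted in the same fit. Of 27 translation factors and other TOP mRNAs, 24 fell and 1 rose in cKO_M1 against cKO_M0, and 16 fell and 2 rose in WT. The share that fell was 88.9% in cKO and 59.3% in WT, beside the 36% and 37.1% of all tested genes. Eef1a1, the elongation factor that delivers aminoacyl-tRNA, fell (log2 fold change -1.21 in cKO and -0.71 in WT), and it was lower in cKO_M1 than in WT_M1 (log2 fold change -0.44, edgeR adjusted p = 0.0202). Nap1l1, a histone chaperone with a TOP mRNA, fell likewise (-1.77 and -1.45). Eif4a1, the initiation helicase, rose in WT (0.60, edgeR adjusted p = 2.6e-05) and did not pass in cKO (0.08, adjusted p = 0.461), with a difference between genotypes' responses of -0.52 (adjusted p = 0.0235). With scaling by library totals its change in cKO was -0.46. Of 8 further ribosome components outside the naming rule, 3 fell and 0 rose in each genotype, 37.5% and near the share of all tested genes that fell. Among them were Rack1, the scaffold on the small subunit head, with -1.2 in cKO and -0.80 in WT, and Rps3a1 with -0.79 and -0.42.

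Most ribosome assembly genes fell. Of 58 tested, 44 fell and 3 rose in cKO_M1 against cKO_M0, and 33 fell and 5 rose in WT. That is 75.9% and 56.9% lower, beside 36% and 37.1% of all tested genes. Dkc1, the pseudouridine synthase of ribosomal RNA, fell with log2 fold changes of -2.29 in cKO and -2.06 in WT. Nop58, a core protein of box C/D snoRNPs, fell with -2.14 and -1.47, and Wdr12, a large subunit assembly factor, with -2.01 and -1.77. Gnl3, a nucleolar GTPase, rose in WT (1.43, edgeR adjusted p = 4.76e-06) and did not pass in cKO (-0.35, adjusted p = 0.107), and the difference was -1.78 (adjusted p = 0.00177). Of 10 tested snoRNA host genes, 3 fell and 2 rose in cKO, and 1 fell and 5 rose in WT, so that 50% and 60% were called, beside 70.2% and 71.4% of all tested genes. The host gene Zfas1, itself a TOP transcript, rose by 0.79 in cKO and 1.47 in WT, opposite in direction to the ribosomal protein mRNAs.

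Of 30 regulators around mTORC1, TOP mRNAs and MYC, 16 rose and 8 fell in cKO, and 18 rose and 7 fell in WT. In either direction 80% and 83.3% were called, beside 70.2% and 71.4% of all tested genes. Myc, a transcription factor of ribosome production, fell (log2 fold change -2.78 in cKO and -1.64 in WT), with a difference of -1.14 (edgeR adjusted p = 0.0195), and it was at 3.07 ± 0.765 CPM in cKO_M1 and 5.44 ± 0.639 CPM in WT_M1 (SD, n = 3 each). Mxd1, which competes with MYC for its partner Max, rose by 4.49 in cKO and 4.50 in WT. Eif4ebp1, the translation repressor that mTORC1 inactivates, rose by 1.34 and 1.18, and the mTORC1 inhibitor Sesn2 by 1.06 and 1.64, while its relative Sesn1 fell (-4.51 and -5.31). Of 21 genes of ribosome quality control and stress, 9 rose and 7 fell in cKO, and 8 rose and 8 fell in WT, 76.2% in each genotype and near the share of all tested genes.

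Fewer genes of the mitochondrial ribosome were called than of all tested genes, and they moved both ways. Of 77 tested mitochondrial ribosomal protein genes, 27 fell and 8 rose in cKO_M1 against cKO_M0, and 19 fell and 15 rose in WT, with medians of -0.16 and -0.04. The share called was 45.5% in cKO and 44.2% in WT, beside 70.2% and 71.4% of all tested genes. Mrps6 fell (-1.55 in cKO and -1.14 in WT), whereas Mrpl45 rose by 0.82 and 0.86. Of 102 tested rows for ribosomal protein pseudogenes, 56 fell and 1 rose in cKO, and 35 fell and 0 rose in WT. The share that fell was 54.9% in cKO and 34.3% in WT, where it lay under the 37.1% of all tested genes. These rows held only 0.0309% ± 0.00498 of counts in cKO_M1 and 0.0350% ± 0.00529 in WT_M1, against 0.0869% ± 0.0129 in cKO_M0 and 0.0741% ± 0.0108 in WT_M0 (SD, n = 3 each), so adding them left the ratio of the M1 to the M0 share at 0.373 in cKO and 0.496 in WT.

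Over the 12 libraries, the other genes most like the mean log2 level of the 81 ribosomal protein genes were Eef1b2, an elongation factor subunit (Pearson's r = 0.988), Tomm20, a mitochondrial import receptor (0.986), Eif3h, an initiation factor subunit (0.985), Ppia, the cyclophilin A prolyl isomerase (0.985), and Naca, a chaperone at the exit tunnel (0.982). The correlations describe 4 separate groups of libraries and include the difference between M1 and M0. Eef1b2 had a log2 fold change of M1 over M0 of -1.04 in cKO (edgeR adjusted p = 0.000289) and -0.29 in WT (adjusted p = 0.209), and Naca fell in both (-0.99 and -0.43).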

How the data were processed

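RNA was sequenced from 12 libraries of mouse macrophages. Per the submitters' processing notes, featureCounts 2.0.3, HISAT2 2.2.1, Trimmomatic 0.39 and SAMtools 1.16.1 were used with build GRCm39. Not given in the sources used here: strand option, handling of multiply matching reads, gene annotation release. The authors deposited raw counts per gene, not normalized, with a gene length. Of values from 1 to 10, 60.9% were even, which counting each mate of a pair would give but no source states; counts halved were an alternative.

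Counts were tested in edgeR 4.0.16 (R 4.3.3): filterByExpr (minimum count 10, minimum total 15) left 15110 genes, TMM scaling, 1 mean per group over 12 libraries, quasi-likelihood F-test, Benjamini-Hochberg adjustment over all tested genes, called at adjusted p under 0.05. Alternatives were DESeq2 1.42.0, limma-voom (limma 3.58.1), other scalings, no filter, fewer libraries and, added after seeing the data, levels by principal transcript and the share without Rps10, Rpl13a and Rpl24. The fit was tested on simulated data made for cKO against WT in M1, where it called 71.1% of 97 genes changed 2-fold, 43.6% of 94 changed 1.5-fold and 0.0208% of unchanged genes, of 14638. Deviations used log2(CPM + 0.5).

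Transcript lengths, shared 50-base stretches and overlaps came from GENCODE M21 (GRCm38), start sites from RefSeq, with no coordinate moved between builds. Members and lists were chosen with earlier results of these data known. Genes named were the 5 highest and 5 lowest per length, up to 6 members each way with the largest called change per comparison (at least 1 CPM in the higher group), or the 2 of smallest p where fewer than 2 passed, the paralog pairs, up to 4 called genes of smallest p per list, Zc3h12c and the 5 most alike genes. Members outside that rule (among them Rpl5, Rpl11, Rpsa, Rps6, Rps29, Rpl29, Rps27a, Rpl13a and Rpl24) were chosen after their values were seen. No set test was run, and sums over members have no p.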

Additional observations from a re-analysis of the deposited data

Results flagged for a closer look

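For 4 ribosomal protein genes the effect of the cKO genotype differed between M1 and M0 in a test of that difference (edgeR quasi-likelihood test, interaction term). They are 4.94% of the 81 tested, all called lower, near the 4.14% of all tested genes called lower, while 4.02% of all were called higher. The log2 difference was -0.799 for Rpl10a, -0.696 for Rpl3, -0.595 for Rpl23a and -0.442 for Rps26. Each of these calls was lost when single libraries were left out. The adjusted p then reached 0.0778 for Rpl10a, 0.111 for Rpl3, 0.122 for Rpl23a and 0.101 for Rps26.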

How the results depend on the processing

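No paired analysis was possible because the groups share no replicate numbers. Higher calls for cKO against WT in M0 (0) became 2 under DESeq2, 39 with no low-count filter and 1 with only the groups compared, and 0 to 2 without single libraries. Over all genes, higher calls (100) became 408 of 15110, 709 of 27501 and 201 of 14412, and 0 to 202 without single libraries. Lower calls for cKO against WT in M1 (4) became 23 with no filter and 3 to 8 without single libraries. Over all genes, lower calls (1461) became 1772 of 27501 with no filter and 985 to 1698 without single libraries. For M1 against M0 in cKO, no filter gave 1 higher call, and lower calls (71) ranged from 61 to 73 without single libraries. Over all genes, no filter gave 5096 higher calls of 27501, and lower calls (5441) ranged from 5045 to 5515 without single libraries. In WT, the 1 higher call became 0 under DESeq2 or library totals, 2 with counts halved or no filter, 3 with only the groups compared and 0 to 2 without single libraries; the 42 lower calls became 75 under library totals and 30 to 49 without single libraries. Interaction calls (4, all lower) became 12 under DESeq2, 1 under library totals, 55 with no filter and 0 to 23 without single libraries. Over all genes, lower calls (625) became 1007, 519 and 1186 of 27501, and 306 to 792 without single libraries. No filter brings 27501 genes into the estimate of the spread; the cause of the added calls was not tested.

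Without single libraries the mean share lay between 0.791% and 0.931% in cKO_M1, 0.892% and 1.03% in WT_M1, 2.25% and 2.55% in cKO_M0 and 1.83% and 2.08% in WT_M0. Leaving the 20 most abundant other genes out of the total gave 1.15% in WT_M1.

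Under library totals alone, which lowers all M1 values relative to M0, log2 fold changes of M1 over M0 turned negative, among the genes followed singly, in WT for Rplp1 (-0.507), Rpl27 (-0.577), Eif3a (-0.554), Tsc1 (-0.124), Cdkn1a (-0.152) and Eif2ak4 (-0.457), and in cKO for Eif4a1 (-0.459), Snhg12 (-0.49), Eif4e (-0.451), Tsc1 (-0.26), Mrpl36 (-0.497), Mrpl39 (-0.061) and Neat1 (-0.145). Among all ribosomal protein genes, 10 of the 12 above 0 in WT and the 1 above 0 in cKO turned negative there, and 6 of the 10 were called lower (Rpl9, Rpl17, Rpl27, Rpl41, Rplp1 and Rps29). Calls on single genes did not change in direction under the other settings. Depth limits Rps10, Rpl24, Rpl39l, Rpl32l, Rpl3l and Rpl10l, whose counts were low.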
